A study of Mus musculus with 57 samples.

Results

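Brown adipose tissue (BAT) from mice homozygous for the R707W substitution in Mfn2 (KI) was compared with BAT from wild-type (WT) littermates across all genes. The comparison took the 6 KI and the 6 WT columns of the BAT count table, which are 12 of the 57 samples of the series, with 1 RNA library for each mouse. All 12 mice were male, on a C57BL/6J background, and were put on a high-fat diet (HFD, 45% of energy as fat) at 5 weeks of age for 6 months. The other samples are inguinal white adipose tissue (WAT) from mice of the same 2 genotypes on HFD or chow, and inguinal WAT on HFD is used below where BAT is set against another depot. KI mice descend from a single CRISPR-Cas9 founder and also carry a silent change that makes an EcoRV site, so the line is 1 targeting event. The allele is present in every cell of the animal and not in adipocytes alone.

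Brown adipocytes burn fatty acids to make heat. Noradrenaline reaches the cell through β-adrenergic receptors and raises cyclic AMP, which starts lipolysis and switches on thermogenic genes, and uncoupling protein UCP1 then lets protons leak across the inner mitochondrial membrane. Around the adipocytes lies a stroma of fibroblasts, vessels and immune cells that lays down collagen and other matrix proteins. Mfn2 encodes mitofusin 2, a GTPase of the outer mitochondrial membrane that fuses mitochondria. Cells with stressed mitochondria can turn on the integrated stress response (ISR), in which phosphorylated eIF2α favours translation of ATF4 and its relatives, and these induce genes of amino acid synthesis, amino acid transport and tRNA charging.

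Counts per mouse totalled 8042591 to 10347424 in WT and 8414754 to 10522554 in KI BAT, with 18189 to 19718 genes at 1 count or more. Levels are given in CPM, counts scaled to the normalised library size of each mouse, differences as the log2 fold change of KI over WT with its standard error (SE), and a gene was called at an adjusted p below 0.01 in edgeR's quasi-likelihood test. The 10 brown adipocyte markers were all present in both genotypes and summed to 9819.8 to 13691 CPM in WT and 11013 to 16665 in KI mice. Skeletal muscle markers stood far apart in 4 libraries, at 2596 CPM in WT1, 3046 CPM in WT2, 158 CPM in KI4 and 769 CPM in KI6, against 3.12 to 36.8 CPM in the other 8. With these 4 mice left out, 228 genes were called, and 49 of the 68 called genes that the rule for names picks kept their call. The other 19 were Cbr1, Cfap161, Ckb, Clec3b, Ddit3, Edem1, Fabp3, Got1, Lonp1, mt-Co1, Phgdh, Podn, Psat1, Retn, Sel1l, Slc22a12, Tshr, Txnrd1 and Vnn1, and the part of muscle in them was not tested. That fit held only the other 8 mice, and some of the 19, such as mt-Co1, Psat1 and Ddit3, also lost their call in most fits that left out 1 mouse. The targeted gene itself, Mfn2 (ENSMUSG00000029020, chromosome 4, bases 147873599 to 147904704 of GRCm38), read 262, 273 and 299.7 CPM (lowest, median, highest) in WT and 278, 335 and 418 CPM in KI mice. These ranges overlapped and Mfn2 was not called (log2 fold change 0.29, SE 0.11, adjusted p = 0.11, n = 6 per genotype); counts per gene cannot show the substitution, so Mfn2 does not check the labels.

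In BAT 180 of the 13267 genes tested rose in KI mice (1.36%) and 63 fell (0.475%). The median log2 fold change over all genes tested was -0.01. In 192 called genes every KI mouse lay outside the WT range. Over all genes tested this held for 3.56%, with 2.26% higher and 1.3% lower in KI mice. Among called genes the median was 0.96 for those higher and -1.06 for those lower, and 81 rose and 35 fell by more than 1 on the log2 scale. Genes of the stress response and one-carbon metabolism were among those that rose furthest (Gadd45a by 3.99, Mthfd2 by 3.50), and an adipokine and a lactate receptor among those that fell furthest (Rbp4 by 2.89, Hcar1 by 2.26). No gene of the thermogenic list was called.

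**Figure D1:**
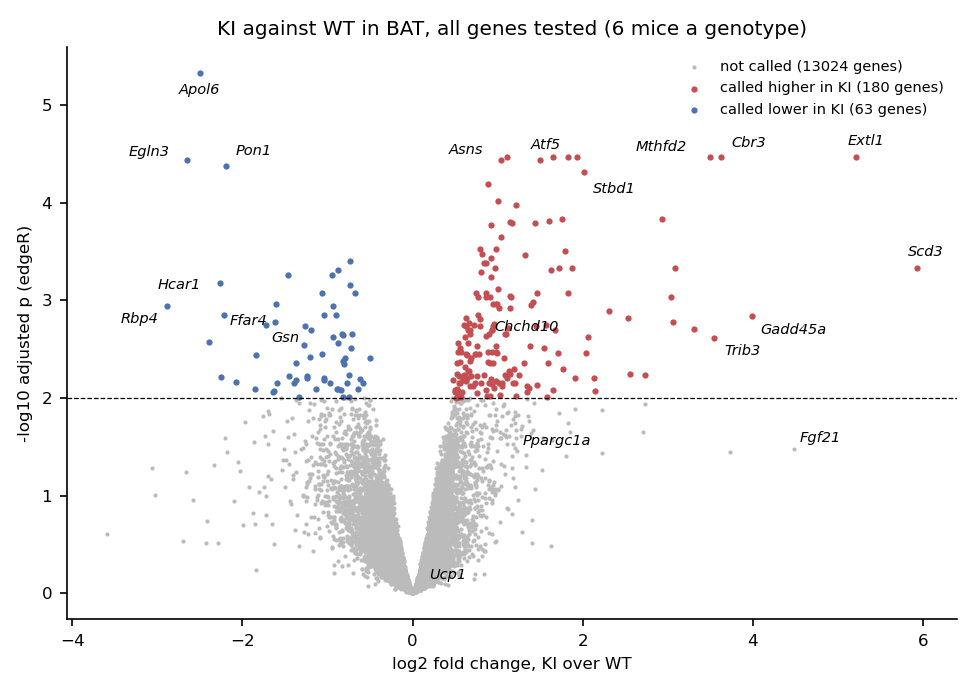
Log2 fold change of KI over WT (x axis) against -log10 of the adjusted p (y axis, edgeR) for the 13267 genes tested in BAT, 1 point a gene, with the dashed line at an adjusted p of 0.01. The 180 genes called higher reach further from 0 (Scd3, 5.93) than the 63 called lower (Rbp4, -2.89), and Ucp1 lies near the origin.

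Thermogenic genes were measured first. None of the 24 genes of the thermogenic list was called by edgeR, 8 had an unadjusted p below 0.05 and DESeq2 called 3, all higher. Such p-values are common here, since 3242 of all 13267 genes tested (24.4%) had an unadjusted p below 0.05, and the counts of them given for each list below are to be read against that share. DESeq2 was run on 25076 genes, without edgeR's filter on low counts, and called 717 of them, 462 higher and 255 lower. Its counts for each list are to be read against these, and it called a larger share than edgeR. The median log2 fold change of the thermogenic list was 0.27, and 19 of the 24 were positive. Ucp1 (ENSMUSG00000031710) read 3355, 5009 and 5709 CPM in WT and 3657, 5322 and 6410.2 in KI mice. These ranges overlapped, and the log2 fold change was 0.12 (SE 0.16, adjusted p = 0.68, n = 6 per genotype). As a share of all counts, Ucp1 took 0.471% ± 0.0669 (SD) in WT and 0.519% ± 0.0832 in KI mice, which did not differ beyond the spread between mice (p = 0.29, 2-sided exact permutation test, n = 6 per genotype).

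Other genes of the brown programme also overlapped between the genotypes. Cidea, a lipid droplet protein of brown adipocytes, ran from 2398 to 3297 CPM in WT and from 3069.5 to 4235 CPM in KI mice (log2 fold change 0.32, SE 0.14, adjusted p = 0.16). Cox8b and Cox7a1, muscle and brown fat isoforms of cytochrome oxidase subunits, had log2 fold changes of 0.32 (SE 0.21) and 0.27 (SE 0.20). Dio2, the deiodinase that makes active thyroid hormone in BAT, was at 0.27 (SE 0.37), with both genotypes spread widely. Elovl3, a fatty acid elongase of recruited BAT, had its highest value in a KI mouse at 464 CPM, but the other KI values reached down to 54.1 CPM, within the WT range of 34.9 to 150 CPM (log2 fold change 0.98, SE 0.54, adjusted p = 0.29). Of the lineage factors, Prdm16 had a log2 fold change of -0.25 (SE 0.16) and Zic1 of 0.01 (SE 0.23).

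Ppargc1a, the coactivator that drives mitochondrial biogenesis, read 22, 30.6 and 76.1 CPM in WT and 49, 101 and 125 in KI mice, a log2 fold change of 1.23 (SE 0.32) whose adjusted p was 0.035. Its ranges overlapped, because WT1 and WT2 lay above the lowest KI mouse. These are the WT mice with high skeletal muscle markers (2596 and 3046 CPM), and the part of muscle in their Ppargc1a level was not tested. A pair of further members, named here after their values were seen, had smaller adjusted p and no call. Kcnk3, a potassium channel of brown adipocytes, had a median of 315 CPM in WT and 713 in KI mice (log2 fold change 0.99, SE 0.23, adjusted p = 0.017), with overlap and no call. Bmp8b, a secreted factor of activated BAT, had a log2 fold change of 0.79 (SE 0.19, adjusted p = 0.022).

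The adrenergic arm was measured with 18 genes, 16 of them tested. edgeR called none, 7 had an unadjusted p below 0.05 and DESeq2 called 2, both lower. Adrb3, the main β-adrenergic receptor of rodent adipocytes, read 236, 326 and 406 CPM in WT and 177, 229 and 299 in KI mice (log2 fold change -0.50, SE 0.15, adjusted p = 0.053). Its ranges overlapped. Among receptors that oppose lipolysis, 2 of 6 were called lower by edgeR and 3 by DESeq2, none was called higher and all 6 were negative (median -0.95). Ffar4, a receptor for long-chain fatty acids, read 45.1, 69.3 and 101 CPM in WT and 14.6, 21.9 and 33.2 in KI mice. No KI mouse reached the lowest WT mouse, and the gene fell by 1.61 on the log2 scale (SE 0.23, adjusted p = 0.0011). Hcar1, the lactate receptor that lowers cyclic AMP, fell by 2.26 (SE 0.32, adjusted p = 0.00066), from 3.29 to 11 CPM in WT to 0.785 to 1.94 CPM in KI mice, again with no overlap.

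Heat can also be made without UCP1, by cycling of creatine or calcium. Of 8 tested genes of these cycles, 2 were called, both higher, while 5 were negative and the median log2 fold change was -0.19. Without the 4 mice high in skeletal muscle markers this median was -0.06. Ckb, brain-type creatine kinase, read 49.2, 72.2 and 108 CPM in WT and 88.3, 195 and 236 in KI mice (log2 fold change 1.20, SE 0.23, adjusted p = 0.007). Only KI5, the lowest KI mouse, lay within the WT range. Slc6a8, the creatine transporter, rose by 0.73 on the log2 scale (SE 0.14, adjusted p = 0.007), with ranges of 27.4 to 44.4 and 44.6 to 73.7 CPM that did not overlap. Ckb lost its call in 7 of the 12 fits that left out 1 mouse (highest adjusted p 0.022, without WT6) and Slc6a8 in 8 (0.020, without WT6), while over all 12 fits the log2 fold change stayed within 1.11 to 1.35 for Ckb and 0.66 to 0.82 for Slc6a8, and without the 4 muscle-positive mice the adjusted p was 0.031 for Ckb and 0.00086 for Slc6a8.

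**Figure D2:**
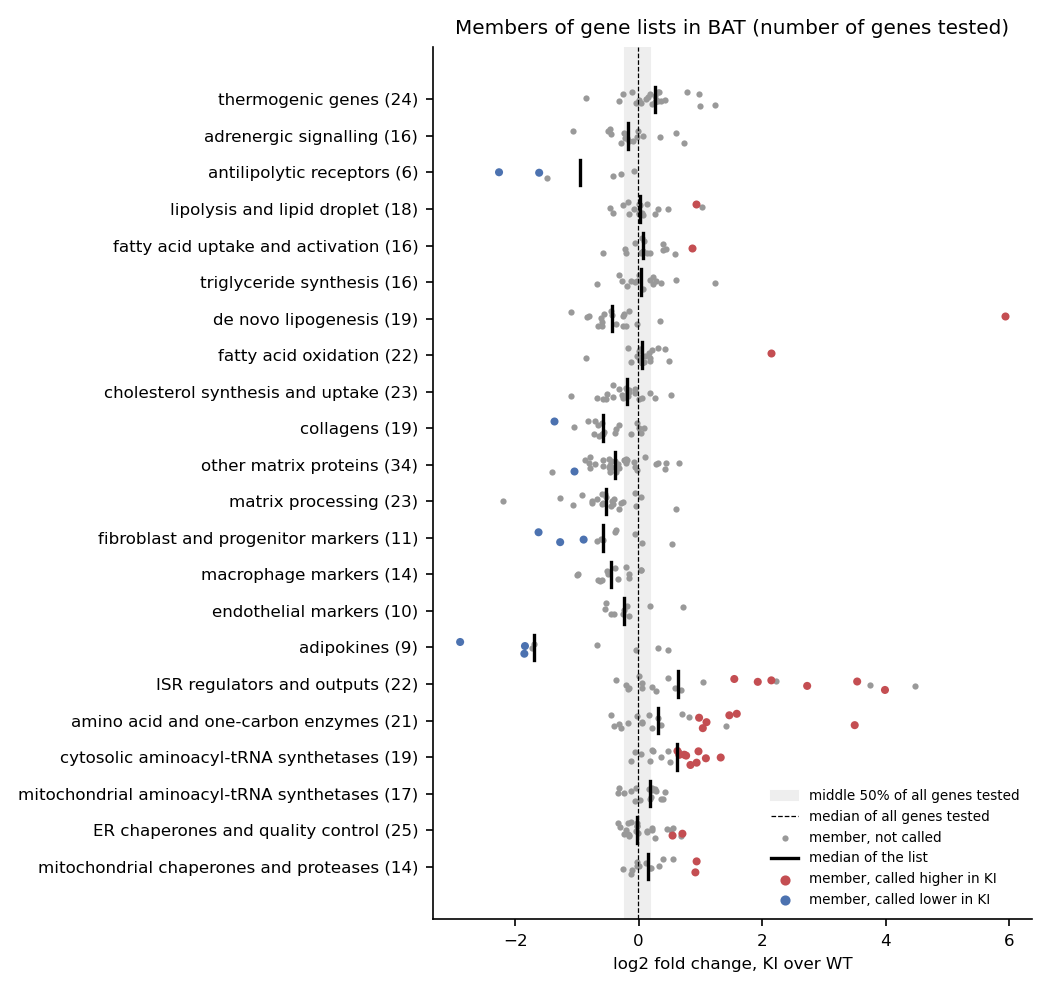
Log2 fold change of KI over WT (x axis) of each tested member of 22 gene lists (rows), with called members coloured, the median of each list as a black bar and the range between the quartiles of all 13267 genes tested as a grey band. Lists of the integrated stress response and cytosolic synthetases lie to the right of the band (medians 0.64 and 0.63), while adipokines (-1.69), antilipolytic receptors (-0.95), collagens (-0.57) and matrix processing genes (-0.53) lie to the left.

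In the lipolysis and lipid droplet list, 1 of 18 tested genes was called by edgeR, higher, and the median was 0.02. With DESeq2, 2 were called higher and 1 lower. The lipases Pnpla2 and Lipe, which start triglyceride breakdown, had log2 fold changes of 0.01 (SE 0.15) and 0.14 (SE 0.13), and the lipase inhibitor G0s2 was at 0.00 (SE 0.22). The droplet coat proteins Plin1 and Plin5 were at 0.00 (SE 0.12) and -0.08 (SE 0.12). Cidec, which enlarges lipid droplets by fusing them, read 694 to 863 CPM in WT and 413 to 664 in KI mice. These ranges did not overlap, yet the gene was not called (log2 fold change -0.46, SE 0.13, adjusted p = 0.036). The called member was Abhd6, a monoacylglycerol lipase. It read 38, 41.8 and 44.6 CPM in WT and 57.8, 81.2 and 98.2 in KI mice, rose by 0.93 (SE 0.11, adjusted p = 0.00017) and was called in all 12 fits without 1 mouse.

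Fatty acid uptake and activation showed 1 call by edgeR among 16 genes, with a median of 0.07, and DESeq2 called 3 higher and 1 lower. Lpl and Cd36, which free and take up circulating fatty acids, had log2 fold changes of 0.13 (SE 0.24) and 0.06 (SE 0.14). Fabp4, the fatty acid binding protein of all adipocytes, was at -0.21 (SE 0.13). Fabp3, the form of heart, muscle and brown fat, was the gene called by edgeR. It read 1296, 2191 and 2828 CPM in WT and 2898, 3942 and 5081 in KI mice, with no overlap, and rose by 0.87 (SE 0.18, adjusted p = 0.0083). It lost its call in 8 of 12 fits without 1 mouse (highest adjusted p 0.024, without WT6) and without the muscle-positive mice (adjusted p = 0.014).

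None of the 16 triglyceride synthesis genes was called by edgeR, with 4 at an unadjusted p below 0.05 and 1 called by DESeq2. Gpd1 and Pck1, which help supply glycerol 3-phosphate, had log2 fold changes of -0.12 (SE 0.25) and -0.02 (SE 0.19). Dgat2, which adds the third fatty acid to diacylglycerol, was at -0.18 (SE 0.20). Gk, the glycerol kinase, was at 0.61 (SE 0.23, adjusted p = 0.11).

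Of 19 genes of de novo lipogenesis, 17 were negative (median -0.43) but 1 was called, Scd3, which was higher. Fasn, fatty acid synthase, ran from 458 to 14189 CPM within WT mice and from 1506 to 10546 CPM within KI mice (log2 fold change -0.56, SE 0.70, adjusted p = 0.67). Acly and Acaca, the enzymes before it, had log2 fold changes of -0.83 (SE 0.75; 0.14 without WT5) and -0.59 (SE 0.57). Scd1, the main stearoyl-CoA desaturase, read 3071, 11583 and 19262 CPM in WT and 2367, 2974 and 17074 in KI mice. A single KI mouse, KI5, held the high value while the other 5 KI mice lay at 5426 CPM or below, and the gene was not called (log2 fold change -1.09, SE 0.57, adjusted p = 0.27). The transcription factors of the pathway, Mlxipl (ChREBP) and Srebf1, were at -0.43 (SE 0.14, adjusted p = 0.076) and -0.26 (SE 0.16). Scd3, a desaturase paralogue next to Scd1, went the other way. It was at 0.528 CPM or below in every WT mouse and read 1.56, 9.94 and 18.8 CPM in KI mice, a fitted log2 fold change of 5.93 (SE 0.73, adjusted p = 0.00047). Desaturase genes are close in sequence, and how reads shared between them were counted is not given in the sources used here.

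In fatty acid oxidation 1 of 22 genes was called, with a median of 0.05. Acadm, a dehydrogenase of β-oxidation, was at -0.17 (SE 0.13), and Cpt1b, the muscle and brown fat form of the enzyme that passes fatty acids into mitochondria, was at -0.85 (SE 0.25, adjusted p = 0.052). The called gene was Acot2, a thioesterase of the mitochondrial matrix. It read 25.4, 39.6 and 53.9 CPM in WT and 43.2, 199 and 272 in KI mice, and only KI6 lay within the WT range. Acot2 rose by 2.14 (SE 0.37, adjusted p = 0.0062) but lost its call in 10 of 12 fits without 1 mouse (highest adjusted p 0.019, without WT4). For cholesterol synthesis and uptake edgeR and DESeq2 both called none of 23 genes, 4 had an unadjusted p below 0.05 and 19 were negative (median -0.19).

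**Figure D3:**
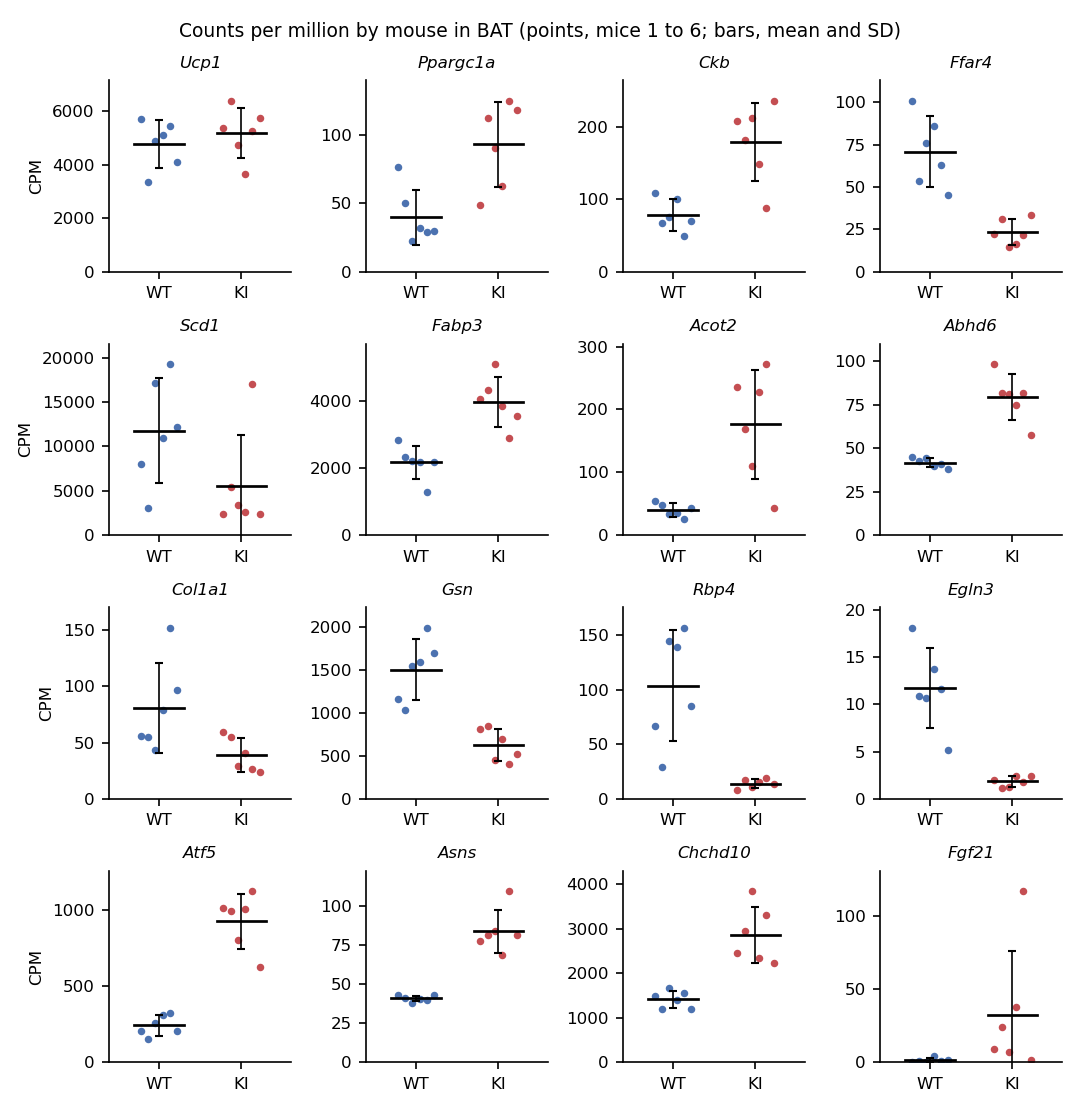
Level in CPM (y axis) of 16 genes in each WT and KI mouse (points, mice 1 to 6 from left to right), with bars for the mean and SD, which are shown down to 0. Ucp1 overlaps between the genotypes, Scd1 and Fgf21 vary widely among mice of 1 genotype, and Ffar4, Fabp3, Abhd6, Gsn, Rbp4, Egln3, Atf5, Asns and Chchd10 do not overlap.

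Among 19 collagen genes, 16 were negative (median -0.57), and 11 had an unadjusted p below 0.05. Of the 19, 1 was called lower by edgeR and 2 by DESeq2, and none was called higher by either. The fibrillar collagens Col1a1 and Col3a1 read 43.3 to 152 and 145 to 418 CPM in WT and 23.6 to 59.3 and 92 to 236 in KI mice. Their ranges overlapped, and neither was called (log2 fold change -1.05, SE 0.33, adjusted p = 0.072 for Col1a1 and -0.82, SE 0.30, adjusted p = 0.12 for Col3a1). Col6a1, of the pericellular matrix, was at -0.57 (SE 0.16, adjusted p = 0.043), whereas the basement membrane collagen Col4a1 was at -0.12 (SE 0.16). The called collagen was Col16a1, which joins fibrils, at 5.39 to 9.56 CPM in WT and 1.23 to 3.93 in KI mice. It fell by 1.37 (SE 0.25, adjusted p = 0.0044), with no overlap, and lost its call in 4 of 12 fits without 1 mouse (highest adjusted p 0.015, without WT6).

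Other matrix proteins had a median of -0.38, with 28 of 34 negative, 1 called lower by edgeR and 3 by DESeq2. The gene that edgeR called was Lox, lysyl oxidase, which cross-links collagen. It fell by 1.04 (SE 0.20, adjusted p = 0.0065), from a WT median of 21.6 to a KI median of 10.9 CPM, with ranges that overlapped slightly and a call lost in 9 of 12 fits without 1 mouse (highest adjusted p 0.020, without KI3). Fn1, fibronectin, did not overlap, at 20.7 to 36.2 CPM in WT and 13.1 to 19.6 in KI mice, and missed the threshold narrowly (log2 fold change -0.79, SE 0.17, adjusted p = 0.0101). Sparc, a collagen-binding protein, was at 0.11 (SE 0.15). Of 23 genes that process matrix, 21 were negative (median -0.53). edgeR called none, 14 had an unadjusted p below 0.05 and DESeq2 called 2, both lower. TGF-β family genes had a median of -0.17 over 23 genes, none called by edgeR, 5 at an unadjusted p below 0.05 and 1 called lower by DESeq2, with Tgfb1 at 0.09 (SE 0.12) and Tgfb2 at -0.42 (SE 0.34).

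Markers of fibroblasts and their progenitors held 3 calls by edgeR and 4 by DESeq2, all lower, among 11 genes (median -0.57). Pi16, of a progenitor population around vessels, read 6.49, 12.6 and 22.5 CPM in WT and 2.92, 5.04 and 5.5 in KI mice. It fell by 1.62 (SE 0.26, adjusted p = 0.0016), with no overlap and in all 12 fits without 1 mouse. Gsn, gelsolin, which severs actin filaments, fell by 1.27 (SE 0.21, adjusted p = 0.0018), from 1028 to 1991 CPM in WT to 405 to 849 CPM in KI mice. Clec3b, tetranectin, fell by 0.89 (SE 0.18, adjusted p = 0.0082) and lost its call in 8 of 12 fits without 1 mouse (highest adjusted p 0.025, without WT6). Pdgfra, the receptor that marks adipose progenitors, was at -0.61 (SE 0.18, adjusted p = 0.05). The 11 markers together summed to 1482 to 2551 CPM in WT and 845 to 1258 in KI mice, without overlap. Most of this sum was Gsn, and the other 10 markers summed to 396 to 559 CPM in WT and 388 to 471 in KI mice, which overlap. In whole tissue, fewer cells of a type and less RNA per cell cannot be told apart.

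Of 14 macrophage markers, 12 were negative (median -0.45) and 3 had an unadjusted p below 0.05, but neither edgeR nor DESeq2 called any, and their sum was 208 to 609 CPM in WT and 224 to 380.2 in KI mice. Adgre1 and Cd68 were at -0.39 (SE 0.30) and -0.51 (SE 0.30) and the complement gene C1qa at 0.04 (SE 0.22). Endothelial markers had a median of -0.24 over 10 genes, none called by edgeR, 4 at an unadjusted p below 0.05 and 2 called by DESeq2, 1 in each direction, with Pecam1 at -0.16 (SE 0.12). Mural cell markers had a median of -0.31 over 8 genes, with 2 at an unadjusted p below 0.05 and none called by edgeR or DESeq2. Only 3 of 10 lymphocyte markers were high enough to be tested. Interferon-stimulated genes were negative in 12 of 13 (median -0.42), 5 with an unadjusted p below 0.05 and none called by edgeR or DESeq2.

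**Figure D4:**
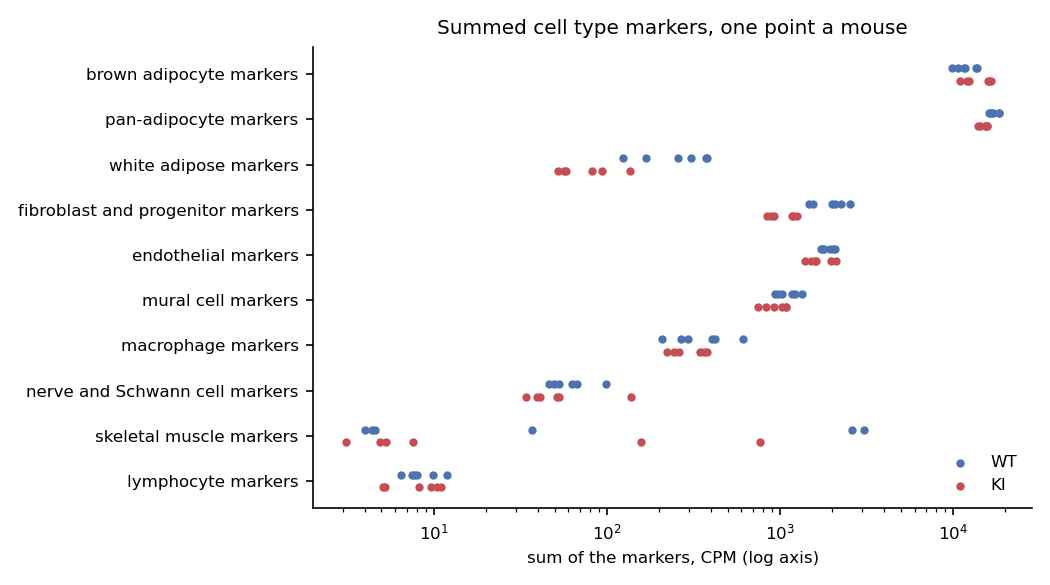
Sums of the markers of 10 cell types in CPM (x axis, log scale) in each mouse (points, WT above KI). Fibroblast sums do not overlap between the genotypes but do without Gsn (396 to 559 CPM in WT, 388 to 471 in KI), pan-adipocyte sums do not overlap but do without Fabp4 (4804 to 5584 CPM in WT, 3858 to 5227 in KI), white adipose sums are lower in KI mice but for 1 pair, and skeletal muscle sums exceed 100 CPM in 4 mice only.

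Of 9 tested adipokines, 3 were called lower by edgeR and 4 by DESeq2, none higher by either, and the median was -1.69. Rbp4 (retinol binding protein), which carries vitamin A, read 29.5, 112 and 157 CPM in WT and 7.74, 14.6 and 19.1 in KI mice. No KI mouse reached a WT mouse, and Rbp4 fell by 2.89 (SE 0.38, adjusted p = 0.0011). Retn, resistin, fell by 1.84 (SE 0.31, adjusted p = 0.0036), from 13.8 to 40.3 CPM in WT to 2.7 to 10.5 CPM in KI mice, and was called in 11 of 12 fits without 1 mouse, losing its call without KI5 (adjusted p = 0.0103). Sfrp5, a secreted Wnt antagonist, fell by 1.85 (SE 0.36, adjusted p = 0.0081) with overlap and lost its call in 10 of these fits (highest adjusted p 0.023, without KI2). Lep, leptin, ran from 13.1 to 162 CPM in WT and from 8.3 to 39.5 CPM in KI mice (log2 fold change -1.72, SE 0.58, adjusted p = 0.10), and Adipoq, adiponectin, from 781 to 943 and from 427 to 791 CPM (-0.67, SE 0.15, adjusted p = 0.013). The paper, which used DESeq2, reports Lep and Adipoq as lower in KI BAT, the direction seen here, and its adjusted p is below 0.01 for Adipoq but not for Lep. Cfd, adipsin, was at -1.69 (SE 0.50, adjusted p = 0.063). Beside these falls, the 8 white adipose markers summed to 124 to 382 CPM in WT and 52.2 to 137 in KI mice. Of these 8, Tcf21 was at 0 in every mouse and 4 were tested, with none called by edgeR, 3 at an unadjusted p below 0.05 and 2 called lower by DESeq2. The pan-adipocyte markers summed to 16176 to 18506 CPM in WT and 13979 to 15632 in KI mice, and without Fabp4, their main part, to 4804 to 5584 and 3858 to 5227 CPM, which overlap. The part of white adipocytes in the falls was not tested.

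Of 12 adipogenic transcription factors edgeR called none, 6 had an unadjusted p below 0.05 and DESeq2 called 1, higher. Pparg, the master regulator of adipocytes, was at 0.34 (SE 0.13, adjusted p = 0.11) and Cebpa at -0.56 (SE 0.18, adjusted p = 0.063). Slc2a4, the insulin-regulated glucose transporter, and Hk2, a hexokinase, were at 0.15 (SE 0.19) and 0.14 (SE 0.25), and among 23 genes of glucose uptake and glycolysis edgeR and DESeq2 called none, with 1 at an unadjusted p below 0.05. In the hypoxia list 1 of 11 genes was called by edgeR and 2 by DESeq2, all lower. Egln3, a prolyl hydroxylase of hypoxia-inducible factor, read 5.19, 11.3 and 18.1 CPM in WT and 1.1, 1.92 and 2.4 in KI mice, a fall of 2.65 (SE 0.27, adjusted p = 3.7e-05) without overlap. Peg3, a paternally expressed zinc finger gene, fell by 2.26 (SE 0.39, adjusted p = 0.0062), from 15 to 81.3 CPM in WT to 4.04 to 13.9 CPM in KI mice, but lost its call in 8 of 12 fits without 1 mouse (highest adjusted p 0.020, without KI3).

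Mitochondrially encoded transcripts took a smaller share of the counts in KI BAT. The 37 mitochondrially encoded genes held 16.3% ± 1.45 (SD) of counts in WT and 11.4% ± 0.816 in KI mice, with ranges of 14.6% to 18.4% and 10.6% to 12.8% that did not overlap (p = 0.0022, 2-sided exact permutation test, n = 6 per genotype, the smallest p that this design allows). All 13 mitochondrially encoded mRNAs had a negative log2 fold change (median -0.69), but the size differed among them. Calls numbered 2 by edgeR and 5 by DESeq2, all lower. mt-Nd4, of complex I, read 13253, 17270 and 21004 CPM in WT and 7784, 9186 and 9810.4 in KI mice. It fell by 0.94 (SE 0.14, adjusted p = 0.0011), with no overlap and in all 12 fits without 1 mouse. mt-Co1, of cytochrome oxidase, fell by 0.75 (SE 0.16, adjusted p = 0.00978), also with no overlap, but was called in none of the 12 fits (highest adjusted p 0.042, without KI2). mt-Cytb, of complex III, was at -0.81 (SE 0.17, adjusted p = 0.01) without a call. By contrast mt-Nd1 was at -0.04 (SE 0.18), from 10122 to 20206 CPM in WT and 11733 to 18691 in KI mice. Nuclear copies of mitochondrial DNA can take or split reads of some of these genes, so levels of mt-Atp6 (WT median 95.3 CPM) and other mRNAs of low count are uncertain.

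Of 73 nuclear-encoded respiratory chain subunits, 66 had a positive log2 fold change (median 0.25), none was called by edgeR, 17 had an unadjusted p below 0.05 and DESeq2 called 1, higher. Sdhb, of complex II, was at 0.09 (SE 0.14). Tfam, the packaging factor of mitochondrial DNA, was at 0.12 (SE 0.11), and neither edgeR nor DESeq2 called any of 13 genes of mitochondrial DNA maintenance and transcription, 2 of them at an unadjusted p below 0.05. The Mfn2 paralogue Mfn1 was at 0.28 (SE 0.11, adjusted p = 0.14) and the inner membrane fusion gene Opa1 at 0.16 (SE 0.12). Chchd10, of the intermembrane space, was the 1 call among 13 genes of the mitochondrial dynamics list. It read 1194, 1442 and 1681 CPM in WT and 2234, 2709 and 3841 in KI mice and rose by 1.01 (SE 0.16, adjusted p = 0.0012), with no overlap. Of 14 mitochondrial chaperones and proteases, 2 were called by edgeR and 3 by DESeq2, all higher. Hspa9, mortalin of the matrix, rose by 0.92 (SE 0.12, adjusted p = 0.00036), from 959.7 to 1345 CPM in WT to 1970.3 to 2465 CPM in KI mice. Lonp1, a matrix protease, rose by 0.94 (SE 0.15, adjusted p = 0.0018), from 244 to 374 CPM to 455 to 823 CPM. Hspd1 was at 0.33 (SE 0.11, adjusted p = 0.088). Oma1, the protease, and Dele1, the signal protein, that link the mitochondrion to the ISR were at -0.26 (SE 0.11, adjusted p = 0.15) and -0.16 (SE 0.12).

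**Figure D5:**
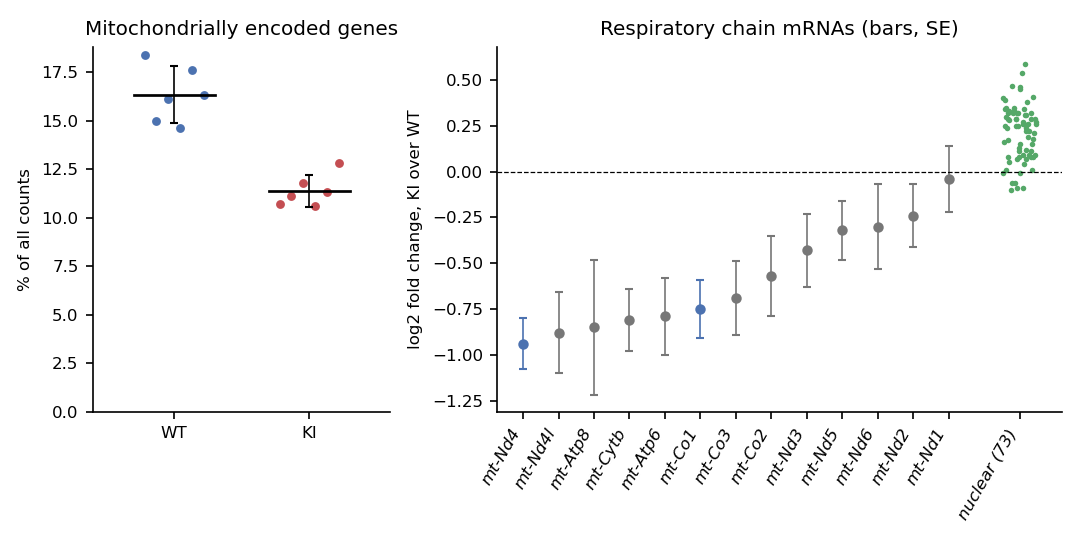
Left, share of all counts from mitochondrially encoded genes in each mouse (y axis, percent; points, mice; bars, mean and SD), 14.6% to 18.4% in WT and 10.6% to 12.8% in KI. Right, log2 fold change of KI over WT (y axis) of the 13 mitochondrially encoded mRNAs with SE, called genes in blue, and of 73 nuclear-encoded subunits, which lie from -0.10 to 0.59 while all 13 mitochondrial ones are negative.

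Most called list members belonged to stress lists. Among 22 ISR regulators and outputs, 6 were called by edgeR and 13 by DESeq2, all higher, and 18 were positive (median 0.64). Among 21 enzymes of amino acid synthesis and one-carbon metabolism 6 were called by edgeR and 8 by DESeq2, all higher, and among 19 cytosolic aminoacyl-tRNA synthetases, which charge tRNAs, 9 were called by edgeR and 11 by DESeq2, all higher (median 0.63). The 17 mitochondrial synthetases held no call by edgeR or DESeq2, with 8 at an unadjusted p below 0.05 and a median of 0.18. ATF4 and C/EBP proteins bind a composite element with the core TGATGNAA, where N is any base. RefSeq promoter windows, 250 bases before to 50 bases after the transcription start in GRCm38.p6, were available for 19 of the 21 called genes of these 3 lists, and 7 of the 19 (36.8%) held the core on either strand. It was in 6 of 29 windows (20.7%) of list members that were tested but not called. Among all genes called higher it was in 10 of 129 windows (7.75%), and these 129 include the 19 windows above, of which 7 held it. The core was in 2 of 39 windows (5.13%) of genes called lower, in 2.77% of the genes tested and in 4.51% of all 27025 genes with a window. A match is a description of letters and not a site. The following 6 windows, chosen after their values were seen, show the core in called genes of different roles, an amino acid enzyme (Asns, Got1), ISR regulators (Trib3, Atf3), a synthetase (Aars) and a mitochondrial protein (Chchd10), given 5′ to 3′ on the gene's strand with each match to the core in capitals.
Asns promoter, chr6:7693160-7693459, minus strand: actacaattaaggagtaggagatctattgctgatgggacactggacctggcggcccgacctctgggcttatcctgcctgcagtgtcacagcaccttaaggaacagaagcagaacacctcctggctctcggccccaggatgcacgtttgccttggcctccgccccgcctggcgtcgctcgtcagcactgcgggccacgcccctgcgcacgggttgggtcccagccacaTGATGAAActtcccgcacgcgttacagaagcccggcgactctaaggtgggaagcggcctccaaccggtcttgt
Trib3 promoter, chr2:152344011-152344310, minus strand: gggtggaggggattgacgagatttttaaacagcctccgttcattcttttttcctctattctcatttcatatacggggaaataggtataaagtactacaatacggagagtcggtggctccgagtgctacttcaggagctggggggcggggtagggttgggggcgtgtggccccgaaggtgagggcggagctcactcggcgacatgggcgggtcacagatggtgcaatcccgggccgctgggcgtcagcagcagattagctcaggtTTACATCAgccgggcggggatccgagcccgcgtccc
Atf3 promoter, chr1:191183284-191183583, minus strand: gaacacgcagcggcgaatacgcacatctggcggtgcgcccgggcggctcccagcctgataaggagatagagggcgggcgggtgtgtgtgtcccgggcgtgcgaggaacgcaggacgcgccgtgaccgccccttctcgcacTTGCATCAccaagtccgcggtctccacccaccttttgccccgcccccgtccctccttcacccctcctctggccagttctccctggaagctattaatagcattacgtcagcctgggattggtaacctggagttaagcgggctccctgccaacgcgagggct
Aars promoter, chr8:111033592-111033891, plus strand: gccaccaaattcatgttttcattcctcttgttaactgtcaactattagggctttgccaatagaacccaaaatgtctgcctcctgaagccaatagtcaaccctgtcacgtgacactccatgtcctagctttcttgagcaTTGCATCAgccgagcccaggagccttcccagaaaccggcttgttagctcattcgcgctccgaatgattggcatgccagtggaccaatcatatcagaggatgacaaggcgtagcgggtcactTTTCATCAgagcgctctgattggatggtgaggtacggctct
Got1 promoter, chr19:43524556-43524855, minus strand: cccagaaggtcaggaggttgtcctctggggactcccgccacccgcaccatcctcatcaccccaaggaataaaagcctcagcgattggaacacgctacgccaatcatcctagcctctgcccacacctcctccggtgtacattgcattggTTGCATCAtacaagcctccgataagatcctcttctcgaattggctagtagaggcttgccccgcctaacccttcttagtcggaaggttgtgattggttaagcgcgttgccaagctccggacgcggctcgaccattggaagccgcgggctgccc
Chchd10 promoter, chr10:75932880-75933179, plus strand: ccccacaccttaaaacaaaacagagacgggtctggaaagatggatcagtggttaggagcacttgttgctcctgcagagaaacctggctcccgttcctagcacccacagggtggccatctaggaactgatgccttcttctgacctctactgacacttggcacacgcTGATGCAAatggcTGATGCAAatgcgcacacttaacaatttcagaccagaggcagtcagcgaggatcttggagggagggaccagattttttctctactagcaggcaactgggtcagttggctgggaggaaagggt

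The windows of Aars and Chchd10 each held 2 matches. The match of Trib3 and 1 of those of Aars lay after the start. Asns, asparagine synthetase, read 37.8, 40.7 and 42.8 CPM in WT and 68.6, 81.3 and 109 in KI mice. The WT values were nearly equal and no KI mouse overlapped them, and Asns rose by 1.04 (SE 0.11, adjusted p = 3.7e-05). Trib3, a pseudokinase that restrains ATF4 signalling, read 9.72, 13.8 and 24.3 CPM in WT and 21.9, 163 and 299 in KI mice. Its rise of 3.54 (SE 0.51, adjusted p = 0.0025) was called in all 12 fits without 1 mouse, although the lowest KI mouse, KI6, lay within the WT range. Atf3, a stress-induced repressor, rose by 2.73 (SE 0.46, adjusted p = 0.0058), from a WT median of 15.2 to a KI median of 97.3 CPM, and lost its call in 9 of these fits (highest adjusted p 0.017, without WT6). Aars, the alanyl-tRNA synthetase, rose by 0.97 (SE 0.13, adjusted p = 0.00047), and Got1, the cytosolic aspartate aminotransferase, by 1.10 (SE 0.18, adjusted p = 0.0022), both without overlap.

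Among the regulators, Atf5, a relative of ATF4 tied to the mitochondrial unfolded protein response, read 151, 233 and 327 CPM in WT and 623, 999 and 1122 in KI mice, with no overlap and a rise of 1.93 (SE 0.19, adjusted p = 3.4e-05). Atf4 itself was at 0.68 (SE 0.15, adjusted p = 0.015) and was not called as mRNA. Ddit3 (CHOP) rose by 2.15 (SE 0.40, adjusted p = 0.0085) but lost its call in 10 of 12 fits without 1 mouse (highest adjusted p 0.026, without WT6). Gadd45a, a growth arrest gene, read 3.89, 5.77 and 7.61 CPM in WT and 10.2, 98.8 and 163 in KI mice, a rise of 3.99 (SE 0.53, adjusted p = 0.0014). Fgf21 and Gdf15, hormones that stressed mitochondria induce, had large but uneven differences. Fgf21 read 0.266, 0.936 and 4.69 CPM in WT and 1.8, 16.5 and 117 in KI mice (log2 fold change 4.48, SE 1.07, adjusted p = 0.033). Gdf15 read 1.2, 2.53 and 21.6 CPM in WT and 3.25, 76.8 and 124 in KI mice (3.74, SE 0.92, adjusted p = 0.036). In both the lowest KI mouse was KI6, which lay within the WT range, and neither was called. KI6 was also the lowest KI mouse for Acot2, Trib3, Atf3 and Gadd45a.

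The one-carbon enzyme Mthfd2 of the mitochondrial folate cycle rose by 3.50 (SE 0.29, adjusted p = 3.4e-05), from 2.58, 2.9 and 8.17 CPM in WT to 28.1, 42.5 and 69.4 CPM in KI mice. Phgdh, the first enzyme of serine synthesis, rose by 0.98 (SE 0.17, adjusted p = 0.0034), and was called in 11 of 12 fits, losing its call without WT6 (adjusted p = 0.011). Psat1, the next enzyme, rose by 1.59 (SE 0.31, adjusted p = 0.00965), but lost its call in 11 of these fits (highest adjusted p 0.027, without WT6). Aldh18a1, of proline synthesis, rose by 1.47 (SE 0.21, adjusted p = 0.00084), and Shmt2 was at 0.31 (SE 0.11, adjusted p = 0.088). Among the synthetases Eprs rose furthest, by 1.33 (SE 0.17, adjusted p = 0.00035), with 52.5 to 71.9 CPM in WT and 80 to 189.8 in KI mice. Wars and Sars, for tryptophan and serine, rose by 1.09 (SE 0.18, adjusted p = 0.0022) and 0.94 (SE 0.14, adjusted p = 0.0011), each with slight overlap. Of 12 amino acid transporters tested none was called by edgeR, while 8 had an unadjusted p below 0.05 and DESeq2 called 4 higher and 1 lower.

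For 25 genes that fold or survey proteins in the endoplasmic reticulum the median was -0.02, and Hspa5 (BiP) read 219 to 304 CPM in WT and 204 to 323 in KI mice (log2 fold change -0.01, SE 0.13). The list held 2 calls, Edem1 (0.71, SE 0.14, adjusted p = 0.0076) and Sel1l (0.55, SE 0.11, adjusted p = 0.0059), both of the degradation of misfolded proteins. They lost their calls in 9 and 8 of 12 fits without 1 mouse (highest adjusted p 0.022 without WT6 and 0.019 without WT4). Of 13 NRF2 targets, genes of the oxidant response, 3 were called higher by edgeR and 4 by DESeq2. Cbr3, a carbonyl reductase, read 4.52, 7.12 and 7.5 CPM in WT and 27.8, 87.2 and 122 in KI mice, a rise of 3.63 (SE 0.31, adjusted p = 3.4e-05). Its neighbour Cbr1 rose by 1.07 (SE 0.19, adjusted p = 0.0039), losing its call without WT4 and WT6 (highest adjusted p 0.012). Txnrd1, a thioredoxin reductase, rose by 0.54 (SE 0.11, adjusted p = 0.0071) and lost its call in 8 of these fits (highest adjusted p 0.020, without WT4).

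Most called genes, 194 of 243, belonged to no list. Those that rose furthest with no overlap between the genotypes included Extl1 (ENSMUSG00000028838), a glycosyltransferase of heparan sulphate synthesis, at 0.978 CPM or below in WT mice and 4.33, 13.8 and 18.4 CPM in KI mice (fitted log2 fold change 5.22, SE 0.48, adjusted p = 3.4e-05). Trim66, Wwc1 and Mreg rose by 3.09 (SE 0.41), 3.04 (SE 0.44) and 2.94 (SE 0.31). The group also held the oxidoreductase Dhrs9 (2.07, SE 0.32), the glycogen-binding protein Stbd1 (2.02, SE 0.21), the cholesterol ester hydrolase Nceh1 (1.83, SE 0.18) and the thioesterase Acot12 (1.72, SE 0.23). Both subunits of an ATP-sensitive potassium channel were in it. Abcc8, the sulphonylurea receptor, rose by 1.83 (SE 0.27, adjusted p = 0.00084) and Kcnj11, the pore, by 1.71 (SE 0.29, adjusted p = 0.0035), from 2.54 to 10.5 CPM in WT to 13 to 29.6 CPM in KI mice. Kcnj11 lost its call without WT3, WT4 or WT6 (highest adjusted p 0.012, without WT6).

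Among the falls outside the lists, Apol6, an apolipoprotein L gene, had the smallest adjusted p of all genes tested. It read 86.8, 109 and 155 CPM in WT and 12.6, 20 and 25.6 in KI mice, and fell by 2.50 (SE 0.19, adjusted p = 4.7e-06). Pon1, a paraoxonase, fell by 2.20 (SE 0.23, adjusted p = 4.2e-05), from 17.2 to 21.5 CPM in WT to 2.27 to 7.82 CPM in KI mice. C4b, of complement, which has a near-identical copy and so an uncertain count, fell by 1.72 (SE 0.26, adjusted p = 0.0018), Slc7a10, an amino acid transporter of white adipocytes, by 1.47 (SE 0.20, adjusted p = 0.00054), and Wscd2 by 2.22 (SE 0.35, adjusted p = 0.0014). Tshr, the thyrotropin receptor, fell by 1.63 (SE 0.33, adjusted p = 0.0085) and lost its call in 10 of 12 fits without 1 mouse (highest adjusted p 0.021, without WT6). Groups did not overlap in any of these genes.

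To ask where BAT differs from another depot on the same diet, the KI effect was compared with that in inguinal WAT (n = 8 per genotype) by the interaction of tissue and genotype. It differed in 485 of 17214 genes (2.82%), with a more positive effect in BAT for 272 (1.58%) and a more negative one for 213 (1.24%). Of the 243 genes called in BAT, 83 had a called difference, 5 of which, Slc22a12 among them, were too low in inguinal WAT to be tested there alone and are not described further. Among genes called higher in BAT, 53 had a more positive and 4 a more negative effect there, and among those called lower, 23 had a more negative and 3 a more positive effect. The BAT values that chose these genes also enter the interaction, which favours a difference in the BAT direction, so this split is no evidence of a response particular to BAT. Of 234 called BAT genes also tested in inguinal WAT, 90 were called there in the same direction and 6 in the opposite one. The share called over all 16471 genes tested in inguinal WAT is not given here, so no excess can be read from these counts. Each inguinal column stands for 1 mouse with 2 technical replicates. Whether the same mice gave both depots is not stated, and columns were treated as independent. Wwc1 rose in BAT and had a log2 fold change of -1.75 in inguinal WAT, a difference of 4.82 (adjusted p = 8.3e-06). Cbr3 rose in BAT but was at -0.08 in inguinal WAT (difference 3.74, adjusted p = 9.1e-08), and Atf3 was at -0.83 there (difference 3.59, adjusted p = 0.00037). Pla2g2e, a secreted phospholipase, rose in BAT by 2.56 (SE 0.44, adjusted p = 0.0057) and was at -1.18 in inguinal WAT (difference 3.76, adjusted p = 1e-04), although its BAT call was lost in 10 of 12 fits without 1 mouse (highest adjusted p 0.019, without WT6). Among falls, Egln3 and Apol6 were at -0.13 and -0.11 in inguinal WAT (differences -2.50 and -2.36, adjusted p = 0.00047 and 7.3e-08). Wscd2 was at 0.13 there (difference -2.33, adjusted p = 7.1e-05) and Rbp4, which also fell there by 0.91, at a difference of -1.95 (adjusted p = 0.0034). Podn, a matrix proteoglycan, fell by 1.06 (SE 0.19) in BAT and had a log2 fold change of 1.13 in inguinal WAT (difference -2.16, adjusted p = 1.2e-05), its BAT call being lost without WT4 and WT6 (highest adjusted p 0.011). Chchd10 rose more in inguinal WAT, by 2.61 (difference -1.56, adjusted p = 0.00051), and mt-Co1 fell more there, at -2.16 (difference 1.45, adjusted p = 0.0015). For Atf5, Mthfd2 and Trib3 no difference between the depots was called (adjusted p = 0.17, 0.021 and 0.7).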

How the data were processed

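RNA from BAT of 12 mice was poly(A)-selected, made into libraries and sequenced as paired ends. Per the study's methods and the labels, the authors used cutadapt for trimming and STAR for alignment to GRCm38, and deposited raw counts per gene from featureCounts; tool versions, the annotation release and the strand setting are not given in the sources used here. The deposited counts were analysed here with edgeR 4.0.16 (TMM scaling, its default filter on low counts, robust quasi-likelihood test, genotype as the only term), and p-values were adjusted by Benjamini and Hochberg over all 13267 genes. DESeq2 1.42.0 was an alternative. SE was the log2 fold change divided by the root of F. The difference between depots was the interaction of tissue and genotype over 28 columns. Shares of counts were compared by a 2-sided exact permutation test over 924 splits of the mice. The functions were tested on simulated data.

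Named genes were, among called genes without overlap, the 20 largest rises and 15 largest falls; in each list, up to 4 called members in each direction; a fixed list of genes; and the 5 most positive and 5 most negative differences between depots among genes called in both tests. Members and lists were chosen with earlier results of these data known. Counts per mouse of 8042591 to 10522554 limit the precision of genes at a few CPM. Alternatives were other scalings, filters and thresholds, leaving out each mouse, the mouse number as a block and, chosen after seeing the data, leaving out the 4 mice with over 100 CPM of skeletal muscle markers.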

Additional observations from a re-analysis of the deposited data

Results flagged for a closer look

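Each gene that the text gives with values was examined in each genotype for a mouse far from the other 5, by Dixon's test, in 264 groups of 6 mice. Such a mouse was found in 23, and KI5 was that mouse in 9, KI6 in 5 and WT4 in 4. The test's rate of about 1 in 20 groups holds for normal and independent values. CPM of related genes need not be either, so no excess over chance can be read from the 23. KI5 stood high for Elovl3 (464 CPM), Fasn (10546 CPM), Scd1 (17074 CPM), Hk2 (431 CPM), Fgf21 (117 CPM), Asns (109 CPM), Got1 (82.0 CPM) and Sel1l (90.6 CPM), and low for Lpl (1591 CPM). KI6 stood high for Dio2 (292 CPM) and Cfd (533 CPM), and low for Sparc (1119.5 CPM), Mreg (20.3 CPM) and Stbd1 (22.4 CPM). KI4 stood high for Pecam1 (361 CPM). Among WT mice, WT4 stood high for Fgf21 (4.69 CPM), Gdf15 (21.6 CPM) and Mthfd2 (8.17 CPM) and low for Abcc8 (0.601 CPM), WT5 stood high for Acly (2222 CPM), Tgfb2 (3.38 CPM) and Tshr (8.56 CPM), and WT2 stood low for Phgdh (21.6 CPM).

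The KI effect differed between BAT and inguinal WAT by edgeR's interaction test (adjusted p below 0.01) in 27 of these genes that were also tested in inguinal WAT alone, given here as the log2 fold change in BAT minus that in inguinal WAT. It was more positive in BAT for the thermogenic list member Kcnk3 (1.62), for Ckb (1.32), for the lipid genes Abhd6 (0.79), Gk (1.09) and Nceh1 (2.75), and for the stress genes Atf3 (3.59), Gadd45a (2.08), Fgf21 (4.05), Cbr1 (0.93) and Cbr3 (3.74). The mitochondrially encoded mt-Co1 (1.45) and mt-Nd1 (1.84), and Wwc1 (4.82), Dhrs9 (3.19) and Pla2g2e (3.76), were also more positive. It was more negative in BAT for Rbp4 (-1.95), Ffar4 (-1.61), Gsn (-1.03), Podn (-2.16), Egln3 (-2.50), Apol6 (-2.36), Wscd2 (-2.33), Pck1 (-1.38), Mlxipl (-0.94) and Cebpa (-1.03), and for Asns (-0.67) and Chchd10 (-1.56), which rose in both depots.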

How the results depend on the processing

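The counts of 180 genes called higher and 63 called lower in BAT became 462 and 255 with DESeq2, 551 and 401 at an adjusted p below 0.05, and 48 and 11 at an adjusted p below 0.001. Leaving out 1 mouse gave 95 to 241 called higher and 35 to 83 called lower. Calls higher moved by over 1.5 times without WT4 (112), WT6 (95) and KI2 (108), and calls lower without WT3 (39), WT4 (36), WT6 (39), KI2 (36) and KI3 (35). These fits hold fewer mice. With the mouse number as a replicate block 234 were called higher and 129 lower. Same-numbered WT and KI mice deviated together (r above 0.1) in 3 of 6 pairs, with r from -0.077 to 0.432. For 6 of the 12 mice the best match in the other genotype had the same number. The labels do not say that the numbers pair the mice, and the main fit has no term for them. Whether same-numbered mice shared a batch was not tested. For the difference between depots, 485 genes became 848 with DESeq2, 1280 at an adjusted p below 0.05 and 362 to 570 on leaving out 1 mouse; the inguinal columns carry no shared number, so no block was fitted there. Without the 4 muscle-positive mice 143 were called higher and 85 lower, 140 of them called with all mice. The cause of these changes was not tested. No called gene and neither share of counts reversed its direction under any alternative run. Of the uncalled genes given with values, 17 changed sign in some fit and were called in none. Leaving out 1 mouse gave log2 fold changes of -0.14 to 0.12 for Zic1, -0.07 to 0.10 for Pnpla2, -0.03 to 0.07 for Plin1, -0.11 to 0.12 for G0s2, -0.01 to 0.26 for Lpl, -0.04 to 0.14 for Cd36, -0.22 to 0.06 for Gpd1, -0.17 to 0.08 for Pck1, -1.21 to 0.14 for Acly, -0.21 to 0.00 for Col4a1, -0.07 to 0.07 for Hspa5, -0.13 to 0.09 for mt-Nd1, -0.13 to 0.30 for Hk2 and -0.06 to 0.24 for C1qa. Without the muscle-positive mice Plin1 was at 0.14, Plin5 at 0.00, Dgat2 at 0.07, Pck1 at 0.33, Hspa5 at 0.10, Sdhb at -0.02 and C1qa at -0.15. With the replicate block Zic1 and Pnpla2 were at -0.01 and G0s2 at -0.05. Plin1 and Hspa5 were at 0.01 with DESeq2 and at 0.00 with other size factors, without the filter on low counts they were at 0.01 and 0.00, and with a minimum of 10 counts Plin1 was at 0.00. G0s2 was at -0.00 without mitochondrially encoded genes and with Ucp1 and the 9 genes of most counts left out of the scaling. The share from mitochondrially encoded genes differed by -7.01 percentage points without the top 10 genes in the denominator (p = 0.0022, exact permutation test), and that of Ucp1 by 0.0226 over nuclear genes only (p = 0.66, exact permutation test).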

Other observations

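Within 20 Mb of Mfn2 on chromosome 4, 13 of 317 genes passed the test (4.1%), 11 with a rise and 2 with a fall in KI mice, against 1.83% over the genome and 2.71% on the whole chromosome. Nearest by position were Srm, spermidine synthase (0.718 Mb from Mfn2, log2 fold change 0.63), and Slc25a33, a mitochondrial pyrimidine carrier (1.87 Mb, 1.17). Gm13068 overlaps Slc25a33 in position (log2 fold change 1.00), and reads of such a pair may be shared. Extl1 (13.5 Mb), Fabp3 (17.6 Mb), Col16a1 (17.8 Mb), Pla2g2e, Ephb2 (11.2 Mb) and Yars (18.7 Mb) were also in this window, and Srm, Fabp3, Col16a1, Pla2g2e and Ephb2 lost their calls in some fits without 1 mouse. Linkage to the edited locus was not tested.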
